A study of Mus musculus with 4 samples.

Results

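The genes described here are 10 genes of apical cell polarity and the Hippo pathway, chosen by symbol: Pard3, Pard6b, Prkci, Prkcz, Ezr, Amotl2, Nf2, Lats1, Lats2 and Yap1. All 10 have a row among the 13658 genes of the authors' deposited table, and all 10 have an adjusted p there. The study measured polyadenylated RNA in 4 samples of wild-type mouse morulae. Fertilized 1-cell embryos had been injected with small interfering RNA (4 to 5 pL, 100 µM) and cultured in M16 medium to the morula stage. In 2 samples the RNA was a pool directed against Nr1h2, the gene of the nuclear receptor LXRβ that oxysterols activate (siNr1h2), and in 2 it was a non-targeting control (siNT). The control embryos were thus injected too. Mouse strain and the number of embryos per sample are not given in the labels, nor is whether the replicates came from separate injections. The spread between samples behind the p-values may therefore be technical.

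In the compacting mouse embryo the outer cells acquire an apical domain that faces outwards, while enclosed cells stay apolar. The apical domain holds the PAR3, PAR6 and atypical protein kinase C (aPKC) complex and ezrin, a protein that ties membrane to cortical actin. In apolar cells angiomotins at cell contacts, together with merlin (the Nf2 product), activate the LATS kinases. LATS kinases phosphorylate the coactivator YAP and keep it out of the nucleus. In polar cells angiomotins are held at the apical cortex, YAP enters the nucleus and, with TEAD4, switches on genes of the trophectoderm, the outer lineage of the blastocyst. Much of this control acts on protein location and phosphorylation, which RNA levels do not measure.

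The data are 1 comparison, siNr1h2 over siNT, with no values per sample, so each gene has 1 mean level over the 4 samples and 1 fold change with its standard error, and the depth of each sample is unknown. Nr1h2 itself checked the labels, with a log2 fold change of -2.33 ± 0.19 (SE) in the authors' deposited table (adjusted p = 3.61e-31), which leaves 0.199 of the control level. Among the 12069 genes with an adjusted p, 239 were called at an adjusted p under 0.05 (1.98%), 184 of them lower and 55 higher in siNr1h2. Centred on the median of 80 ribosomal protein genes, a shift of 0.10 on the log2 scale, the calls were 431 lower and 37 higher. Centred on 3755 abundant genes (means from 500 upwards), they were 142 lower and 82 higher. All 6 early embryo markers (Pou5f1, Nanog, Tfap2c, Tead4, Klf5 and Cdh1) had mean normalized counts of 604 or more in the authors' deposited table. Of 8 cumulus and granulosa cell markers, Foxl2 and Cyp19a1 stood at 1.94 and 2.89 there, and the other 6 have no row there under the symbols searched.

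None of the 10 polarity and Hippo genes was called, higher or lower, by the Wald test of the authors' deposited table (0 of 10, against 0.456% of all tested genes called higher and 1.52% called lower). At an unadjusted p under 0.05 there were 3, against 13.3% of all tested genes: Pard3 and Ezr above 0 (5.97% of all tested genes were, at this p) and Amotl2 below 0 (7.31%). At an adjusted p under 0.1 there were 2, Pard3 and Ezr, against 3.27%. Their fold changes were similar in size, at 1.47 times higher for Pard3 (95% interval 1.16 to 1.87), 1.46 times higher for Ezr (1.14 to 1.89) and 1.41 times lower for Amotl2 (1.11 to 1.78) in the authors' deposited table. The other 7 had 95% intervals that included no change. In these whole embryos, fewer cells of a type and less RNA per cell cannot be told apart.

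By sign, 6 of the 10 log2 fold changes lay above 0 and 4 below, with Prkcz passing below 0 when values were centred on ribosomal protein genes and Lats1 passing above 0 when the trend of fold change with the length and GC content of transcripts was removed. The median of the 10 was 0.14, against 0.00 over all tested genes. Among the 5 apical polarity genes, 4 lay above 0 (3 when centred on ribosomal protein genes). Among the 5 Hippo genes, 2 lay above 0 (3 with the length and GC trend removed). The list was proposed with results of these data known, so these counts describe it and test nothing.

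**Figure D1:**
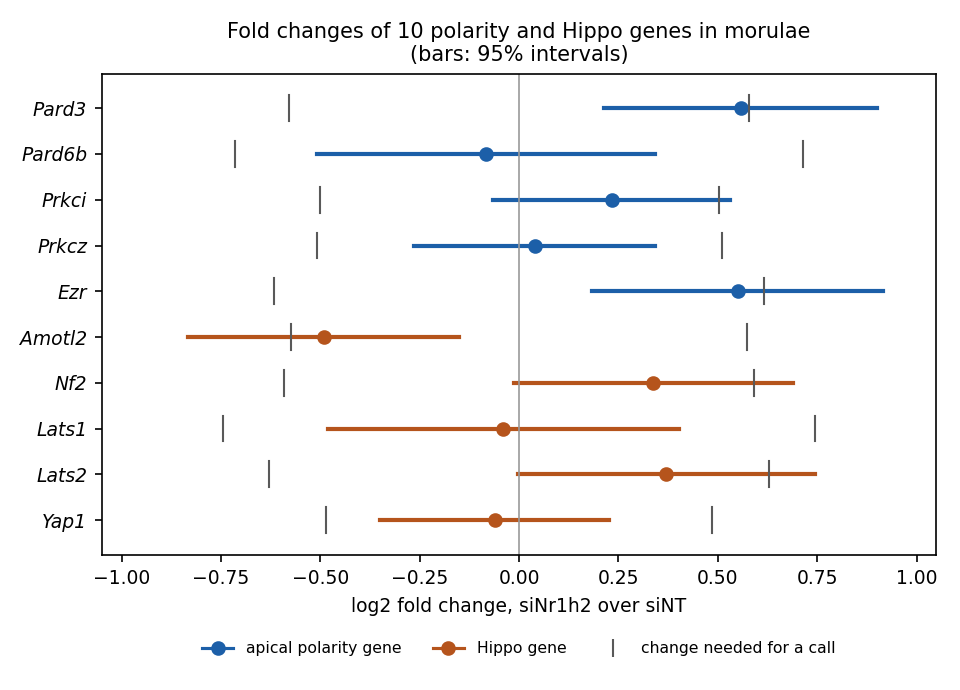
Log2 fold change of each gene, siNr1h2 over siNT (x axis), with points at the deposited estimate, bars for 95% intervals, and grey ticks at the change that the gene would have needed to be called. Only the bars of Pard3, Ezr and Amotl2 leave out 0, and the point of Pard3 at 0.56 lies closest to its tick, at 0.58.

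Mean normalized counts of the 10 ran from 206 for Lats1 to 779 for Yap1 in the authors' deposited table, in the upper part of all tested genes (percentiles 50.4 to 76.6). The 3167 tested genes in that range had a median standard error of 0.18, which asks for a change of 1.51 times before a call. For single genes the needed change ran from 1.40 times for Yap1 to 1.67 times for Lats1. At the authors' scaling, no 95% interval from the normal distribution among the 10 reached a 2-fold change in either direction, and 5 reached a 1.5-fold change. With 2 samples per group and a spread that may be technical, these intervals may be too narrow. The needed change is a threshold on the estimate at the authors' scaling.

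**Figure D2:**
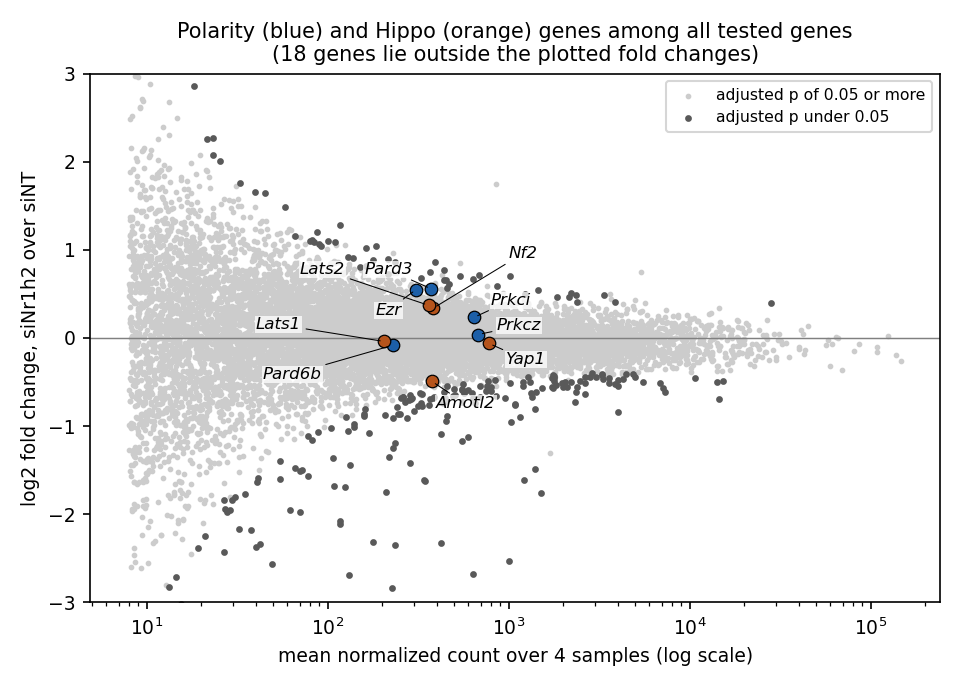
Mean normalized count over the 4 samples (x axis, log scale) against log2 fold change, siNr1h2 over siNT (y axis), for all genes with an adjusted p, with called genes in dark grey and the 10 genes in blue (polarity) and orange (Hippo). The 10 genes lie between 206 and 779 on the x axis and inside the band of uncalled genes, with Pard3, Ezr and Amotl2 near its edges.

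Pard3 encodes PAR3, the scaffold that recruits PAR6 and aPKC to the membrane. At a mean normalized count of 374 its log2 fold change was 0.56 ± 0.18 (SE) in the authors' deposited table, the nearest of the 10 to a call (adjusted p = 0.0629). It ranked 287th of 12069 genes by p. Its adjusted p was 0.0427 when values were centred on genes with a mean of at least 500, and it stayed above 0.05 under the other 6 alternatives that recompute it. The relative Pard3b has no row in the authors' deposited table under that symbol.

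PAR6 proteins are adaptors that bind aPKC and the small GTPase CDC42, and 3 genes encode them. Pard6b, the member of this family among the 10, stood at -0.08 ± 0.22 in the authors' deposited table (adjusted p = 0.919), with a 95% interval of -0.51 to 0.34. Pard6a stood at -0.42 ± 0.28 and Pard6g at 0.54 ± 0.39 in the authors' deposited table (adjusted p = 0.533 and 0.589, so neither passed). The signs of the 3 paralogues differ, but every one of the 3 intervals includes 0. Differences between paralogues were not tested, since the table gives no values per sample.

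The atypical kinases themselves are encoded by Prkci (aPKCι) and Prkcz (aPKCζ). Prkci had a log2 fold change of 0.23 ± 0.15 and Prkcz of 0.04 ± 0.15 in the authors' deposited table, with adjusted p-values of 0.533 and 0.948. At the authors' scaling, the 95% intervals of both kinases lay within 1.45 times upwards and 1.20 times downwards. These bounds rest on 2 samples per group and shift with the scaling. Centred on ribosomal protein genes, Prkcz stood at -0.064. Prkcz shares 18.4% of the 50-base stretches of its longest transcript with the gene Prkcz2, which was not analysed here, so reads of these copies may have been split and the value of Prkcz is uncertain.

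Ezr encodes ezrin, the marker protein of the apical domain at compaction. With a mean normalized count of 309, its log2 fold change in the authors' deposited table was 0.55 ± 0.19 (adjusted p = 0.0998, rank 394 of 12069 by p). Its relatives are the radixin and moesin genes. Rdx stood at 0.01 ± 0.14 and Msn at -0.25 ± 0.25 in the authors' deposited table (adjusted p = 0.987 and 0.737). Under the 7 alternatives the adjusted p of Ezr ran from 0.0699 to 1.

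On the Hippo side, Amotl2 encodes an angiomotin-like protein that binds YAP and LATS and is itself a known YAP target gene. It was the 1 member below 0 with an interval that leaves out 0, at -0.49 ± 0.17 in the authors' deposited table with a mean count of 377 (adjusted p = 0.123, rank 461 of 12069 by p). Whether it was called depended on the processing, and centred on genes with a mean of at least 500 its adjusted p was 0.182. The adjusted p was 0.0230 at a log2 fold change of -0.60 when centred on ribosomal protein genes, and 0.0414 at -0.60 with the length and GC trend removed. Amotl2 has the highest GC content of the 10 longest transcripts, 56.7%, where the trend over all genes stood at 0.11. The other angiomotin genes stood at -0.18 ± 0.15 (Amot) and 0.35 ± 0.35 (Amotl1) in the authors' deposited table, neither of them called (adjusted p = 0.681 and 0.739).

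Nf2 encodes merlin, which brings LATS kinases to the membrane. Its log2 fold change was 0.34 ± 0.18 in the authors' deposited table (adjusted p = 0.404), with a 95% interval of -0.01 to 0.69. The LATS kinases had values of -0.04 ± 0.23 (Lats1, adjusted p = 0.968) and 0.37 ± 0.19 (Lats2, adjusted p = 0.386) in the authors' deposited table. Lats2, like Amotl2, is a known YAP target, and the estimates of these 2 genes have opposite signs. In the GENCODE M21 annotation Lats2 overlaps the gene model Gm49361 on the same strand over 42.4% of its exon bases, and 56.5% of the 50-base stretches of its longest transcript are shared with that model. Its value therefore rests on how the authors' counting treated the overlap, which is not given in the sources used here. Overlap with genes on the opposite strand, whose reads this kit cannot separate, covered 1.25% of the exon bases of Yap1 (Gm20416), 0.122% of those of Ezr (Sytl3) and 0 of the other 8 genes.

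Yap1, the coactivator at the end of the cascade, was the most abundant of the 10 by count and had the narrowest interval. It stood at -0.06 ± 0.15 in the authors' deposited table (adjusted p = 0.911), with a 95% interval of -0.35 to 0.23, a range of 1.27 times lower to 1.17 times higher. Its relative Wwtr1, which encodes TAZ, stood at 0.05 ± 0.14 in the authors' deposited table (adjusted p = 0.917). Of the TEAD genes, Tead4 stood at 0.06 ± 0.16, Tead1 at -0.36 ± 0.19 and Tead2 at -0.05 ± 0.29 in the authors' deposited table, and none was called. Tead3, with a mean count of 1.68, has no adjusted p there.

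Levels of different genes can be compared only per length. Divided by the length of the longest annotated transcript, the mean normalized count per kb was highest for Prkcz (167), Yap1 (147) and Prkci (137). Next came Ezr (97.5), Amotl2 (85.1), Nf2 (81.2), Lats2 (69.6), Pard6b (67.2) and Pard3 (64.4), and Lats1 was lowest at 28.5. With the median transcript length in place of the longest, the range was 49.1 for Lats1 to 1063 for Prkcz, so the ends of the order are shared by both measures and the sizes are not. The spread over samples is unknown, so neighbours in this order cannot be told apart. The levels of Prkcz and Lats2 are uncertain as well, for the sequence they share with Prkcz2 (18.4% of 50-base stretches) and Gm49361 (56.5%).

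Within families, the members were not always the most abundant gene. Per kb of longest transcript, Rdx (293) exceeded Ezr, Amot (127) exceeded Amotl2, Wwtr1 (212) exceeded Yap1 and Pard6a (94.2) exceeded Pard6b. With the median transcript length in place of the longest, the order turned for Yap1 (542 against 216 for Wwtr1) and Amotl2 (474 against 201 for Amot). On the longest transcript, Pard6g (18.0), Msn (36.8) and Amotl1 (7.46) lay below their relatives among the 10. Tead4 (196) was the most abundant TEAD gene, ahead of Tead2 (34.6) and Tead1 (31.0), on this scale of count per kb.

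**Figure D3:**
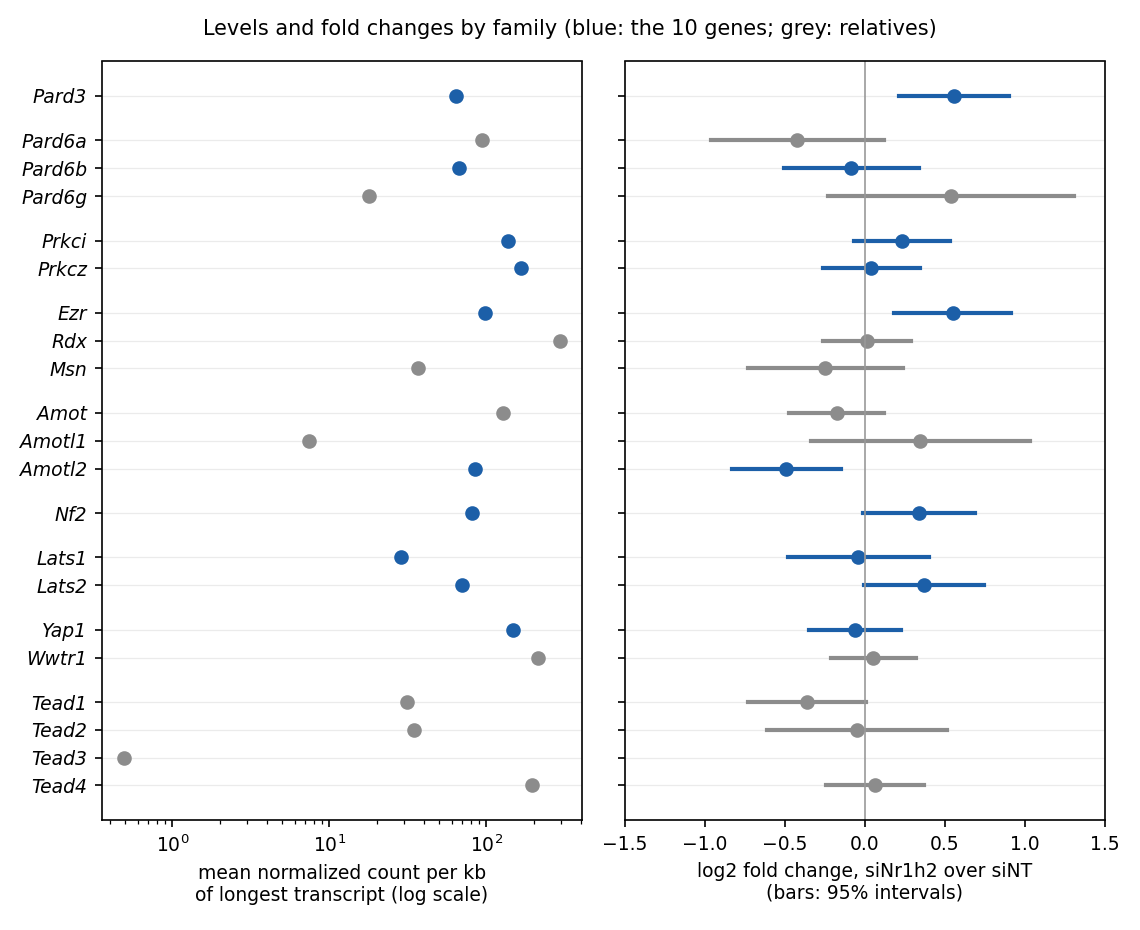
Mean normalized count per kb of the longest transcript (left, log scale) and log2 fold change, siNr1h2 over siNT, with 95% intervals (right), for the 10 genes in blue and their relatives in grey. Tead3 has a level but no interval because it has no adjusted p, and only the bars of Pard3, Ezr and Amotl2 leave out 0.

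The 10 genes lie on 9 chromosomes, Amotl2 and Yap1 sharing chromosome 9, and RefSeq start sites of the build GRCm38.p6 matched all 10 by symbol, with 15 sites in all. The 250 bases upstream of the 15 sites had a median GC content of 67.2% and a median ratio of observed to expected CpG of 0.862, against 52.4% and 0.373 over 32851 sites of all genes. Motifs were searched on both strands of these windows. The nuclear receptor half-site AGGTCA was found in 1 of the 15 windows, that of Amotl2, and in 14.0% of all windows. The paired element of LXR and RXR, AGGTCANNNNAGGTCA, was in 0 of the 15 windows and in 0.0152% of all windows. It contains the half-site, so any window that holds it also counts for the half-site.

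The core of the TEAD binding site, GGAATG, was found in 3 of the 15 windows (of Prkci, Amotl2 and Yap1) and in 12.6% of all windows. The AP-2 element GCCNNNGGC, of the family of the polarity factor TFAP2C, was in 5 of the 15 (of Pard3, Pard6b, Prkcz, Lats2 and Yap1) and in 13.7% of all windows. A match describes letters only. The 15 windows are richer in GC (median 67.2%, against 52.4% over all windows), and the fixed letters of the AP-2 element are all G or C. The shares were not matched for GC content, so no excess can be read from them. The windows of the 3 genes nearest to a call and of the other genes with a TEAD core follow, credited to RefSeq (GRCm38.p6), 5′ to 3′ on the gene's strand, ending at the base before the most upstream start site for that gene. Capitals mark the half-site and the TEAD core on either strand. The positions are chr8:127063806-127064055 (plus strand) for Pard3, chr17:6782781-6783030 (minus strand) for Ezr, chr9:102717554-102717803 (plus strand) for Amotl2, chr3:30995521-30995770 (plus strand) for Prkci and chr9:8004597-8004846 (minus strand) for Yap1.
Pard3: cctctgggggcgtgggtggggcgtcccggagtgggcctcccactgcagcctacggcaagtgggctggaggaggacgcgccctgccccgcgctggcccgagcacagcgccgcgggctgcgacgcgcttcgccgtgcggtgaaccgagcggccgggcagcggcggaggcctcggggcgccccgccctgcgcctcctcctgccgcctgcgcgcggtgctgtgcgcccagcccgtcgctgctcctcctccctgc
Ezr: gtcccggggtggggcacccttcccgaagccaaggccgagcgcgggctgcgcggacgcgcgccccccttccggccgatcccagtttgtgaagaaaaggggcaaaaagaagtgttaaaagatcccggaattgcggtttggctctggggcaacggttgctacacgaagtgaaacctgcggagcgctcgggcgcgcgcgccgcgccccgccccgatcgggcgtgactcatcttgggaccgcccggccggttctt
Amotl2: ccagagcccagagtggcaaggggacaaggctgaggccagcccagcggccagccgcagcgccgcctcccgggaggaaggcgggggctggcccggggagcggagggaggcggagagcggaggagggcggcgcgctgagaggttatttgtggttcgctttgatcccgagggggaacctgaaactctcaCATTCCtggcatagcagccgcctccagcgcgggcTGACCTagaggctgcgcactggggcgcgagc
Prkci: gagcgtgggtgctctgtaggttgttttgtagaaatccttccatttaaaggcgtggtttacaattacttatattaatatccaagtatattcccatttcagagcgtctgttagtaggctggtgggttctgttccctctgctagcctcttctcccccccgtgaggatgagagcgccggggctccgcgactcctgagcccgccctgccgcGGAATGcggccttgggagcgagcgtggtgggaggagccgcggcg
Yap1: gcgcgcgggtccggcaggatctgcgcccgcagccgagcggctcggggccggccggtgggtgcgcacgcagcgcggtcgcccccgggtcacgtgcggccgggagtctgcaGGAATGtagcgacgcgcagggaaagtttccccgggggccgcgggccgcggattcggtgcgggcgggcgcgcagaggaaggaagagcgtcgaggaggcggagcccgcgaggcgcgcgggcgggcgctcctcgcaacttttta

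In Amotl2 the capitals show both motifs on the opposite strand, the TEAD core as CATTCC from 65 bases upstream of the start and the half-site as TGACCT from 31 bases upstream. Prkci and Yap1 hold the TEAD core on the gene's own strand, from 44 and 141 bases upstream. Pard3 and Ezr, with the largest estimates above 0, hold neither motif in this window, which says only that these letters are absent from it.

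The other genes of the same pathways were taken from 7 lists, which hold 82 further genes of the authors' deposited table, 70 of them with an adjusted p. Of those 70, 0 were called higher and 2 lower (Lin7c and Krt8), and 68 did not pass, against 1.98% called among all tested genes. At an unadjusted p under 0.05 there were 10 (4 above 0 and 6 below), near the 13.3% of all tested genes at this p (5.97% above 0 and 7.31% below). Their median log2 fold change was 0.01, with 36 above 0 and 34 below. The shares of all tested genes given here are also the background for the counts of each list below.

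Among 8 further genes of the apical Par and Crumbs complexes, 1 was lower, 7 did not pass and the median log2 fold change was -0.06. An unadjusted p under 0.05 was found for 3 of them (Lin7c and Cdc42 below 0, Patj above 0), against 13.3% of all tested genes. The called gene was Lin7c, which encodes a small PDZ scaffold bound to PALS1, at -0.50 ± 0.14 in the authors' deposited table (adjusted p = 0.0249). It no longer passed with the length and GC trend removed (-0.39, adjusted p = 0.136). Cdc42, the GTPase that activates the PAR6 and aPKC complex, stood at -0.30 ± 0.11 in the authors' deposited table and was called only when centred on ribosomal protein genes (adjusted p = 0.168, and 0.0166 so centred). Patj, a Crumbs complex scaffold gene, stood at 0.68 ± 0.33 in the authors' deposited table (adjusted p = 0.358). Pard3b, Crb1, Crb2 and Lin7a have no row there under these symbols.

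None of the 8 tested genes of basolateral polarity and the Par-1 kinases passed, 0 of them at an unadjusted p under 0.05, and their median was 0.11. The Par-1 kinase genes Mark2 (-0.47 ± 0.25), Mark3 (-0.26 ± 0.15) and Mark1 (0.42 ± 0.25) had the smallest p-values in the authors' deposited table, on both sides of 0. Of 9 tested genes of the ERM family and apical cortex none passed, 1 (Myh9) had an unadjusted p under 0.05, and the median was -0.16. Myh9, the non-muscle myosin IIA heavy chain gene, stood at 0.56 ± 0.21 in the authors' deposited table (adjusted p = 0.167), while Myh10 (IIB) stood at -0.18 ± 0.13 and the kinase gene Rock2 at -0.23 ± 0.15.

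None of 16 tested Hippo kinases and upstream regulators passed (median 0.10), and 2 had an unadjusted p under 0.05. These were the protocadherin gene Fat1 at 0.37 ± 0.17 and the kinase gene Taok1 at -0.27 ± 0.13 in the authors' deposited table (adjusted p = 0.335 and 0.359), with Frmd6 next at -0.44 ± 0.26. None of 9 tested Hippo inhibitors passed (median 0.04), and 1 (Limd1) had an unadjusted p under 0.05. The LIM domain gene Limd1, an inhibitor of LATS, stood at 0.73 ± 0.32 in the authors' deposited table (adjusted p = 0.281), and the phosphatase genes Ppp2ca and Ptpn14 at -0.13 ± 0.12 and 0.50 ± 0.55. Ptpn14 was put in this list although its product is known to restrain YAP. Shared 50-base stretches make up 43.2% of the longest transcript of Ppp2ca and 17.8% of that of Frmd6, so both values are uncertain.

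None of 8 tested partners of YAP passed (median 0.00), and 1 (Vgll1) had an unadjusted p under 0.05. Vgll1, a TEAD-binding cofactor gene, had the largest estimate among them, -1.15 ± 0.39 in the authors' deposited table with a mean count of 55.0 (adjusted p = 0.0920, and 0.0341 when centred on ribosomal protein genes). Tfap2c, which acts with TEAD4 in the onset of polarity, stood at 0.15 ± 0.14 in the authors' deposited table (adjusted p = 0.723).

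Of 17 tested YAP and TEAD target genes, among them Amotl2 and Lats2, 1 was lower and 16 did not pass. An unadjusted p under 0.05 was found for 3 of them (Krt8, Amotl2 and Krt18), against 13.3% of all tested genes. All 3 lay below 0, where 7.31% of all tested genes lay at this p, but the direction was not set beforehand. Krt8, a keratin gene of the trophectoderm, stood at -0.50 ± 0.14 and its partner Krt18 at -0.27 ± 0.13 in the authors' deposited table (adjusted p = 0.0211 and 0.362). Krt8 shares 29.7% of the 50-base stretches of its transcript with Krt8-ps and Gm36026, so its value is uncertain. The trophectoderm factor genes Cdx2 and Gata3 stood at 0.01 ± 0.23 and -0.11 ± 0.17, and the classical targets Ccn2 (CTGF) and Ccn1 (CYR61) at 0.28 ± 0.18 and -0.19 ± 0.31, in the authors' deposited table. These 4 genes were named after their values were seen. The median of the 17 was 0.01, and 7 more targets had no adjusted p.

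**Figure D4:**
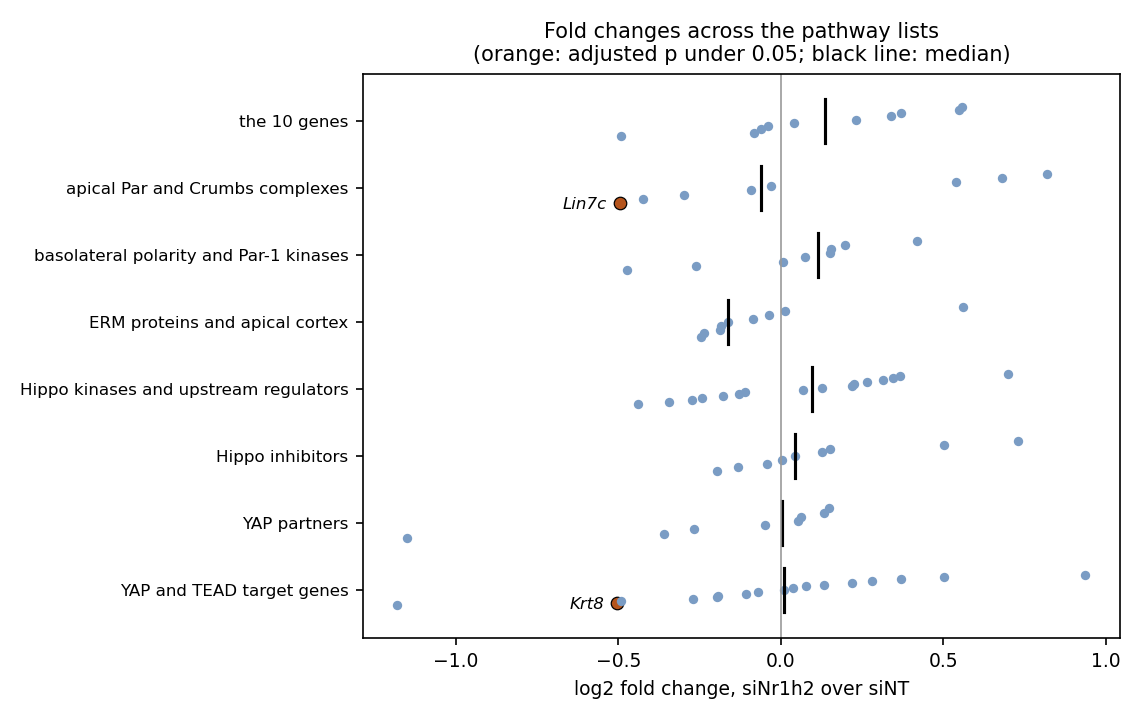
Log2 fold change, siNr1h2 over siNT (x axis), of every gene with an adjusted p in the 10 genes and in the 7 lists (y axis), with points for genes and black lines for list medians. Orange points mark the called genes, Lin7c and Krt8, and list medians lie between -0.16 and 0.14.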

How the data were processed

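RNA of 4 morula samples (2 siNr1h2, 2 siNT) was copied to full-length cDNA with SMART-Seq v4 and made into Nextera XT libraries, per the labels' protocols. The submitters' processing notes name DESeq2, edgeR, Cufflinks 2.2.1, HTSeq 0.12.4, STAR and RSEM, with mm9 as the build and no roles. The kit does not mark strand. Per the file headers, the 1 table holds DESeq2 results for 13658 genes. The authors' mean level is a signal value, a count after division by size factors. Each deposited log2 fold change has a standard error. The Wald statistic is a deposited score. A p-value and its adjusted form, both deposited, complete the columns.

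The deposited statistic equalled the log2 fold change over its standard error, and Benjamini-Hochberg adjustment gave back the adjusted p over the 12069 genes with a mean normalized count above 8.00. No test per gene was run again. A gene was called at an adjusted p under 0.05. The change needed for a call was the smallest absolute statistic of a called gene (3.30) times the gene's standard error. Folds are powers of 2 with 95% intervals from the normal distribution. Transcript lengths, GC content and shared 50-base stretches came from GENCODE M21 (GRCm38), matched by symbol for 99.3% of genes. No gene coordinates are given from it, because the build differs. There were 0 columns of per-sample values left out.

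The 10 genes and the lists were chosen with earlier results of these data known. The genes named are the 10, Nr1h2, per list every called gene and up to 3 with the smallest p, paralogues of the 10, TEAD genes and cell type markers. Cdx2, Gata3, Ccn1 and Ccn2 were added after their values were seen. Alternatives changed the threshold, the low-count filter, the adjustment, the centring, the distribution and a spline trend with length and GC. The calling step was tested on simulated data, with normal noise drawn at the deposited standard errors. That test takes these errors as given, so it cannot show whether they are right. Tools were scikit-learn 1.9.0, scipy 1.17.1 and pandas 2.3.3 in Python 3.11.15.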

Additional observations from a re-analysis of the deposited data

How the results depend on the processing

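No paired analysis was possible because the table gives no values per sample, and for the same reason leaving out replicates, edgeR and a second DESeq2 fit were not run. Of the 10 genes, 0 were called at an adjusted p of 0.05, and 2 (Pard3 and Ezr) at 0.1, 1 (Pard3) when centred on genes with a mean of at least 500, 1 (Amotl2) when centred on ribosomal protein genes and 1 (Amotl2) with the length and GC trend removed. The count was 0 under the other 5 alternatives. Prkcz turned to -0.064 when centred on ribosomal protein genes and Lats1 to 0.042 with the trend removed. The other 8 kept their sign in all 7 alternatives that recompute the adjusted p. Only the centrings and the trend removal change the fold change itself, so only these could have turned a sign.

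The apical Par and Crumbs list (1 called) gave 0 at a threshold of 0.01, under Holm adjustment, under a t distribution with 2 degrees of freedom and with the trend removed, and 2 when centred on ribosomal protein genes. The YAP and TEAD target list (1 called) gave 0 at 0.01, under Holm and under the t distribution, and 2 when centred on ribosomal protein genes or with the trend removed. The list of YAP partners (0 called) gave 1 at a threshold of 0.1 and 1 when centred on ribosomal protein genes. The other 4 lists gave 0 throughout. Over all genes, 239 calls became 109 at 0.01, 395 at 0.1, 49 under Holm adjustment, 468 when centred on ribosomal protein genes and 0 under the t distribution, which is out of reach at this number of samples even for Nr1h2 (adjusted p = 0.948). With 2 samples per group and mean counts of 206 to 779, estimates below 1.40 to 1.67 times were not called among the 10 at the authors' scaling. The cause of each change was not tested.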
